A study of Mus musculus with 16 samples.

Results

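The genes examined encode 8 purinergic receptors, the cell-surface proteins that respond to extracellular ATP and related nucleotides. They were chosen by name: the P2X channel genes P2rx2, P2rx3, P2rx4, P2rx5, P2rx6 and P2rx7, and the P2Y receptor genes P2ry1 and P2ry2. All 8 were found by symbol among the 25719 gene identifiers of each library, and all 8 passed the filter on low counts. P2rx5 and P2rx6 passed it through the P25 libraries, where they are high.

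RNA was measured in whole trigeminal ganglia of mice, the ganglia that hold the sensory neurons of the face, teeth and cornea. The groups were P25 KO (Nogo-A knockout, 25 days after birth), P25 WT (wild type, 25 days after birth), E14 KO (Nogo-A knockout, embryonic day 14) and E14 WT (wild type, embryonic day 14), with 4 libraries each and 1 ganglion per library. No other allele or treatment is named, and the labels do not say how the knockout was made or which strain was used. Library names carry a number and a side. E14 KO replicates 1 and 3 share a number, as do E14 WT replicates 2 and 4, so each of these pairs may be the left and right ganglion of 1 animal, although the series' design text counts 4 animals per group.

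Library totals ran from 15532373 to 29562379 estimated counts. Nogo-A is the longest protein made from Rtn4, so the total over all Rtn4 transcripts need not show its loss and does not check the genotype. Rtn4 stood at 345 to 384 CPM (estimated counts scaled to a common library size) in P25 KO and 406 to 542 CPM in P25 WT, without overlap, and at 236 to 405 CPM in E14 KO and 144 to 521 CPM in E14 WT, with overlap. Neither difference was called by edgeR (adjusted p = 1 at P25 and 0.943 at E14). The 15 sensory neuron markers were detected in every group, including Tubb3, Isl1 and Prph. E14 WT replicate 2 stood apart, and 55.8% of the variance in how its genes deviated from the E14 mean went with GC content and length of their transcripts. This share was 35.6% in E14 WT replicate 3, 32.9% in E14 WT replicate 4 and 32.1% in E14 KO replicate 2. The remaining E14 libraries had 2.28% to 8.9%. Among the P25 libraries, replicate 4 of P25 WT had the highest share, with 41.9%, where the other 7 had 1.43% to 15.2%. All 8 receptors were called between the stages in WT without E14 WT replicate 2 and without P25 WT replicate 4. For P2rx3, P2rx7 and P2ry2, the log2 fold changes in WT without P25 WT replicate 4 were -1.93, 2.08 and 2.25. For P2ry1 the value without E14 WT replicate 2 was 0.96.

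P2X receptors are trimeric cation channels opened by ATP, whereas P2Y receptors are G protein-coupled receptors for ATP, ADP or uridine nucleotides. In sensory ganglia, ATP released from damaged or stretched tissue excites nociceptors through channels that contain the P2X3 subunit, alone or together with P2X2. P2X7 and P2Y receptors are also known from the satellite glia that wrap the neurons and from macrophages, where ATP acts as a signal of injury.

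The channels of nociceptors came first. P2rx3 and P2rx2 were both lower at P25 than at E14, in KO and in WT ganglia. P2rx3 (ENSMUSG00000027071, GRCm38 chr2:84998583-85037462, minus strand) measured 120, 123, 132 and 135 CPM in P25 KO and 127, 145, 131 and 92.5 CPM in P25 WT, against 501, 487, 479 and 567 CPM in E14 KO and 517, 530, 500 and 509 CPM in E14 WT. Every P25 library lay far below every E14 library, and within P25 WT replicate 4 was the lowest. The log2 fold change of P25 over E14 was -2.00 (SE 0.15, edgeR adjusted p = 8.28e-10) in KO and -2.05 (SE 0.15, adjusted p = 5.54e-10) in WT. In bulk tissue, fewer cells of a type and less RNA per cell cannot be told apart. The exons of P2rx3 overlap those of Ssrp1 on the opposite strand by 51 bases. Ssrp1 stood at 73.9 CPM on average at P25 and 145 CPM at E14. Its part in the P2rx3 count was not tested.

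P2rx2 (ENSMUSG00000029503, GRCm38 chr5:110339812-110343212, minus strand), whose product slows the desensitisation of P2X3-containing channels, was sparse throughout. It measured 2.84, 2.07, 4.70 and 2.46 CPM in P25 KO and 3.10, 2.15, 2.62 and 3.78 CPM in P25 WT, against 7.77, 5.92, 11.6 and 7.71 CPM in E14 KO and 7.93, 8.35, 7.22 and 6.96 CPM in E14 WT. The stages did not overlap in either genotype, and replicate 3 was the highest library of both KO groups. The log2 fold change of P25 over E14 was -1.45 (SE 0.28, edgeR adjusted p = 0.000148) in KO and -1.38 (SE 0.28, adjusted p = 0.000236) in WT. Per kilobase of transcript, P2rx3 exceeded P2rx2 by 53.4 ± 16.3 times in P25 KO and 53.0 ± 20.7 times in P25 WT, against 75.6 ± 20.5 times in E14 KO and 78.4 ± 5.02 times in E14 WT (SD, n = 4 each). These ratios overlapped between the stages in both genotypes, with 28.3 to 78.0 in P25 WT and 73.4 to 84.6 in E14 WT.

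The other 6 receptors moved the opposite way. The stage test called all 8 receptor genes in both genotypes, 6 higher and 2 lower at P25, and in all 8 the stages did not overlap. Such calls were common: edgeR called 59.8% of the 15109 genes tested in KO (30.6% higher and 29.2% lower at P25) and 59.6% in WT (29.7% higher and 29.8% lower). Groups that did not overlap made up 59.8% of these genes in KO and 50.2% in WT. The median log2 fold change of the 8 receptors was 1.93 in KO and 1.59 in WT, beside 0.01 and 0.00 over all genes tested.

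**Figure D1:**
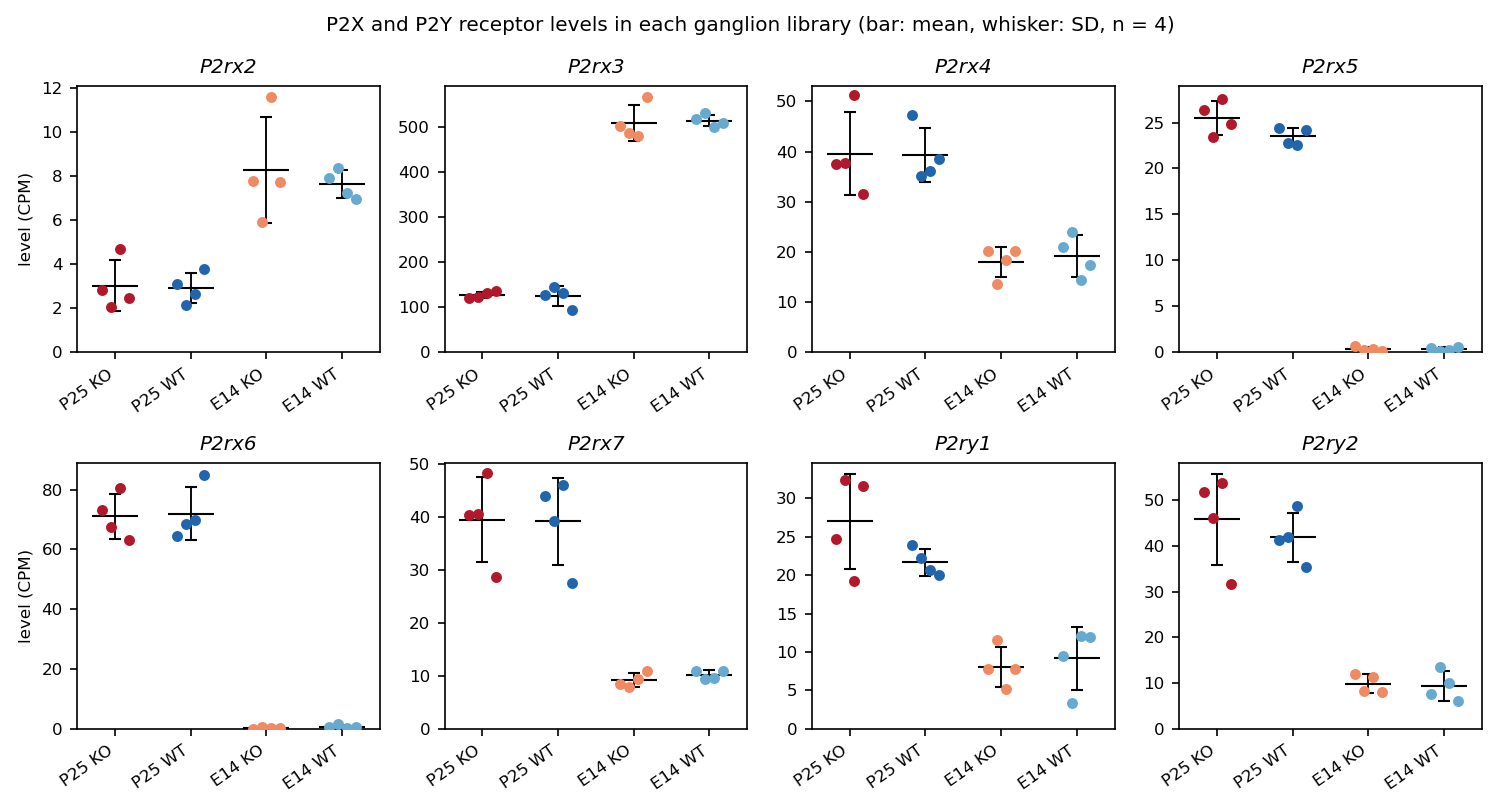
Levels of the 8 receptor genes in CPM (y axis, a separate scale per gene) in each library of P25 KO, P25 WT, E14 KO and E14 WT (x axis). Points are libraries, horizontal bars the mean and whiskers the SD of 4. P2rx2 and P2rx3 lie lower at P25 than at E14 and the other 6 lie higher, while KO and WT overlap for every gene at both stages.

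P2rx5 and P2rx6 were near 0 CPM at E14 and well above it at P25. P2rx6 (ENSMUSG00000022758, GRCm38 chr16:17561885-17577800, plus strand) encodes a subunit that is known for forming poor channels by itself and for joining P2X2 or P2X4. It measured 73.0, 67.5, 80.6 and 63.2 CPM in P25 KO and 64.3, 68.5, 69.8 and 84.8 CPM in P25 WT, against 0, 0.513, 0.291 and 0.190 CPM in E14 KO and 0.642, 1.46, 0.114 and 0.394 CPM in E14 WT. The E14 values rested on 20 counts over the 4 KO libraries and 49 counts over the 4 WT libraries, with no count in E14 KO replicate 1. The log2 fold change of P25 over E14 was 8.05 (SE 0.48, edgeR adjusted p = 2.68e-11) in KO and 6.81 (SE 0.43, adjusted p = 7.14e-11) in WT. These fold changes leaned on single E14 libraries: without E14 KO replicate 2 the KO value was 8.71, and without E14 WT replicate 2 the WT value was 7.48. Exons of P2rx6 overlap those of Slc7a4 on the opposite strand by 554 bases, and Slc7a4 stood at 25.1 CPM on average at P25 and 26.7 CPM at E14.

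P2rx5 (ENSMUSG00000005950, GRCm38 chr11:73160421-73172685, plus strand) encodes a further ATP-gated channel subunit of sensory neurons. Its level was 26.4, 23.4, 27.6 and 24.8 CPM in P25 KO and 24.4, 22.8, 22.5 and 24.2 CPM in P25 WT, against 0.695, 0.187, 0.349 and 0.143 CPM in E14 KO and 0.413, 0.122, 0.227 and 0.569 CPM in E14 WT. No E14 library reached 1 CPM, and the P25 libraries were tightly grouped. P25 over E14 came to 6.27 on the log2 scale (SE 0.36, edgeR adjusted p = 1.29e-11) in KO, from 24 E14 counts in all, and to 6.05 (SE 0.35, adjusted p = 1.68e-11) in WT, from 28.

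P2rx4 and P2rx7 are neighbours on chromosome 5 and are transcribed in the same direction. P2rx4 (ENSMUSG00000029470, GRCm38 chr5:122707544-122729738) encodes a calcium-permeable channel that is largely stored in lysosomes and is known from microglia and macrophages. It measured 37.6, 37.8, 51.2 and 31.5 CPM in P25 KO and 47.2, 35.2, 36.2 and 38.6 CPM in P25 WT, against 20.1, 13.6, 18.3 and 20.1 CPM in E14 KO and 20.9, 23.9, 14.4 and 17.3 CPM in E14 WT. Its stage difference was the smallest of the 8, with a fold of 2.20 (95% interval 1.64 to 2.93, edgeR adjusted p = 6.68e-05) in KO and 2.06 (1.54 to 2.75, adjusted p = 0.000159) in WT.

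P2rx7 (ENSMUSG00000029468, GRCm38 chr5:122643911-122691432) encodes the channel that needs the most ATP to open and that triggers interleukin release from macrophages. Its values were 40.4, 40.6, 48.3 and 28.7 CPM in P25 KO and 43.9, 39.3, 46.0 and 27.6 CPM in P25 WT, against 8.47, 7.93, 9.43 and 10.8 CPM in E14 KO and 10.9, 9.33, 9.61 and 10.9 CPM in E14 WT. Replicate 4 was the lowest library of both P25 groups and replicate 3 the highest. P2rx7 was 4.31-fold higher at P25 in KO (95% interval 3.22 to 5.76, edgeR adjusted p = 2.47e-08) and 3.85-fold higher in WT (2.88 to 5.13, adjusted p = 6.64e-08).

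Both P2Y receptors also rose. P2ry2 (ENSMUSG00000032860, GRCm38 chr7:100996568-101012866, minus strand) encodes a receptor for ATP and UTP that signals through Gq. It measured 51.9, 46.2, 53.7 and 31.6 CPM in P25 KO and 41.2, 42.0, 48.8 and 35.5 CPM in P25 WT, against 12, 8.12, 11.3 and 8.05 CPM in E14 KO and 7.65, 13.5, 10.0 and 6.13 CPM in E14 WT. As for P2rx7, replicate 4 was lowest and replicate 3 highest in both P25 groups. The fold of P25 over E14 was 4.65 in KO (95% interval 3.28 to 6.60, edgeR adjusted p = 1.56e-07) and 4.51 in WT (3.18 to 6.39, adjusted p = 2.01e-07).

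P2ry1 (ENSMUSG00000027765, GRCm38 chr3:61002795-61008982, plus strand) encodes the Gq-coupled receptor for ADP. The 4 libraries held 24.7, 32.4, 19.3 and 31.6 CPM in P25 KO and 23.9, 22.2, 20.7 and 20.0 CPM in P25 WT, against 7.77, 11.5, 5.12 and 7.81 CPM in E14 KO and 9.49, 3.29, 12.1 and 11.9 CPM in E14 WT. The spread was wide in P25 KO and in both E14 groups, yet no E14 library reached a P25 one of its genotype. The log2 fold change of P25 over E14 was 1.74 (SE 0.31, edgeR adjusted p = 7.07e-05) in KO and 1.24 (SE 0.30, adjusted p = 0.00166) in WT. P2ry1 exons overlap the gene model Gm37035 on the opposite strand by 992 bases.

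**Figure D2:**
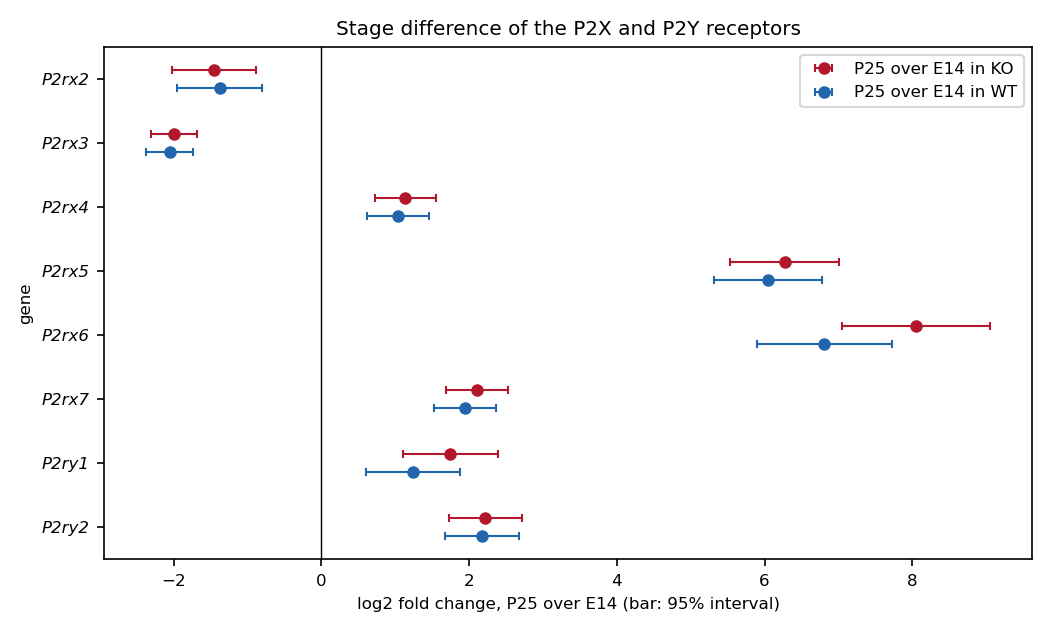
Log2 fold change of P25 over E14 (x axis) for each receptor gene (y axis), with its 95% interval, in KO (upper point) and WT (lower point). P2rx2 and P2rx3 lie left of 0 in both genotypes, and P2rx5 and P2rx6 lie farthest to the right, between 6.05 and 8.05.

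Because the channel genes moved in opposite directions, the make-up of P2X transcripts changed between the stages. Levels were compared between genes as CPM per kilobase of the longest coding transcript. Summed over the 6 P2X genes they came to 135 ± 9.46 in P25 KO and 133 ± 9.47 in P25 WT, against 293 ± 22.6 in E14 KO and 297 ± 8.88 in E14 WT (SD, n = 4 each). P2rx3 made up 48.6% to 57.1% of this sum in P25 KO and 42.9% to 56.8% in P25 WT, against 94.8% to 96.5% in E14 KO and 95.0% to 96.2% in E14 WT. P2rx6 held the second place at P25, with 20.7% to 23.6% in P25 KO and 20.2% to 30.4% in P25 WT, against 0% to 0.0785% in E14 KO and 0.0169% to 0.203% in E14 WT. P2rx2 made up a small share at both stages, with 0.761% to 1.50% in P25 KO and 0.729% to 1.52% in P25 WT, against 1.01% to 1.99% in E14 KO and 1.13% to 1.29% in E14 WT. The share of P2rx3 did not overlap between the stages, whereas that of P2rx2 did.

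**Figure D3:**
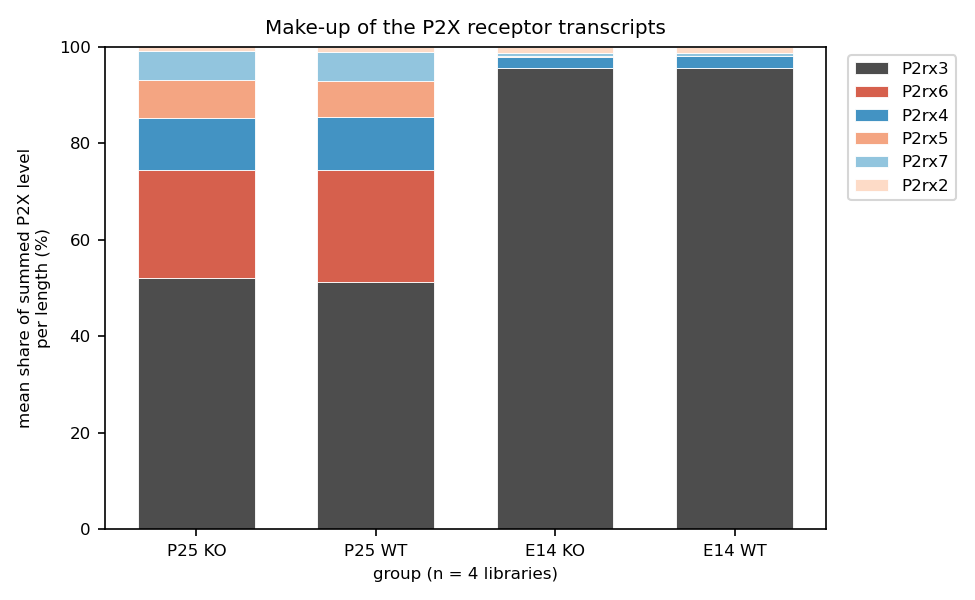
Mean share (y axis, percent) of each P2X gene in the summed level per kilobase of the 6 P2X genes, for P25 KO, P25 WT, E14 KO and E14 WT (x axis, n = 4 libraries each). P2rx3 fills 52.1% and 51.2% of the P25 KO and P25 WT bars and 95.7% and 95.6% of the E14 KO and E14 WT bars.

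The order of levels per kilobase followed from this. At P25, P2rx3 led (70.3 ± 3.88 CPM per kilobase in KO and 68.5 ± 12.3 in WT), followed by P2rx6 (30.3 ± 3.20 in KO and 30.6 ± 3.81 in WT), each clear of its neighbour. P2ry2 and P2rx4 came next and overlapped each other, at 15.2 ± 3.33 and 14.6 ± 3.08 in KO and 13.9 ± 1.80 and 14.5 ± 2.03 in WT. P2rx5, P2rx7 and P2ry1 followed between 5.59 and 10.7 on average, where P2rx7 overlapped P2ry1 in both genotypes. P2rx2 was last, at 1.44 ± 0.556 in KO and 1.39 ± 0.333 in WT. At E14, P2rx3 again led (281 ± 22.1 in KO and 284 ± 6.91 in WT), and P2rx4 was second at 6.67 ± 1.13 in KO, overlapping P2rx2, and 7.07 ± 1.54 in WT, clear of it. P2rx2, P2ry2, P2ry1 and P2rx7 filled the next places in that order, each overlapping the following one, and P2rx5 and P2rx6 shared the bottom without a gap between them.

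The ganglion also changed in its cells between the stages, and those values stand beside the receptor differences. Summed over the 9 Schwann cell markers, the level was 22086 to 44411 CPM in P25 KO and 28380 to 33423 CPM in P25 WT, against 464 to 562 CPM in E14 KO and 432 to 605 CPM in E14 WT. The 10 satellite glia markers summed to 7001 to 9226 CPM in P25 KO and 6296 to 9266 CPM in P25 WT, against 1470 to 1778 CPM in E14 KO and 1423 to 1747 CPM in E14 WT. For the 14 macrophage markers the sums were 240 to 335 CPM in P25 KO and 284 to 331 CPM in P25 WT, against 69.7 to 88.9 CPM in E14 KO and 85.7 to 145 CPM in E14 WT. All 3 lists were higher at P25 with no overlap, and none of their markers was at 0 in a whole group. P25 over E14, edgeR called all 9 Schwann cell markers higher in KO and in WT. Of the 10 satellite glia markers it called 6 higher and 2 lower in each genotype, and of the 14 macrophage markers 13 higher in KO and 11 in WT. Within P25 KO, replicate 3 had the highest and replicate 4 the lowest Schwann cell sum, the same libraries that were highest and lowest for P2rx4, P2rx6, P2rx7 and P2ry2. The satellite glia, macrophage, endothelial, central nervous system glia and surface epithelium sums in P25 KO had the same highest and lowest libraries. The remaining receptors did not follow this order in P25 KO. P2rx2 and P2rx5 were lowest in replicate 2, P2rx3 was highest in replicate 4 (135 CPM), and P2ry1 was lowest in replicate 3 (19.3 CPM). Within P25 WT, replicate 3 also had the highest and replicate 4 the lowest Schwann cell sum, as for P2rx7 and P2ry2. Of the other sums just named, only that of surface epithelium did the same in P25 WT. P2rx6 went against that order in P25 WT, with its highest level in replicate 4, and P2rx4 was highest in replicate 1. P2rx2 was also highest in replicate 4 of P25 WT, and P2rx5 was lowest in replicate 3. Other cell types changed as well. The 8 endothelial markers summed to 62.0 to 128 CPM in P25 KO and 63.3 to 89.5 CPM in P25 WT, against 189 to 240 CPM in E14 KO and 185 to 221 CPM in E14 WT. The 9 erythroid markers summed to 88.0 to 129 CPM in P25 KO and 53.5 to 122 CPM in P25 WT, against 996 to 1606 CPM in E14 KO and 867 to 1542 CPM in E14 WT. These sums were lower at P25 without overlap. For the 8 markers of central nervous system glia the sums were 146 to 308 CPM in P25 KO and 11.9 to 289 CPM in P25 WT, against 13.9 to 23.7 CPM in E14 KO and 5.79 to 25.7 CPM in E14 WT. P25 WT replicate 3, at 11.9 CPM, lay within the E14 range, and 4 of these 8 markers were at 0 in E14 KO and 2 in E14 WT. The part of these cell types in the receptor differences was not tested.

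Neuronal markers went both ways. The sum of the 15 sensory neuron markers was 21000 to 22891 CPM in P25 KO and 21286 to 25714 CPM in P25 WT, against 17975 to 20682 CPM in E14 KO and 16731 to 20403 CPM in E14 WT. Of the 15, edgeR called 7 higher and 4 lower in KO and 7 higher and 3 lower in WT, with log2 fold changes of P25 over E14 from -1.55 to 4.91 in KO and from -1.57 to 5.08 in WT. Their mean log2 CPM was 0.62 higher at P25 in KO and 0.74 higher in WT. That mean pools markers that rose with markers that fell and leans on the few that rose most, so the differences that follow are from this mean and not per neuron. Set against this mean in each library, P2rx3 was 2.61 lower at P25 in KO and 2.81 lower in WT on the log2 scale, and P2rx2 was 2.07 and 2.12 lower, again without overlap between the stages. P2rx5, P2rx6, P2rx7, P2ry1 and P2ry2 remained higher at P25 without overlap, by 0.66 (P2ry1 in WT) to 7.38 (P2rx6 in KO). P2rx4 overlapped between the stages on this scale, with a mean difference of 0.51 in KO and 0.32 in WT. Of the 10 nociceptor markers, edgeR called 7 higher, 1 lower and 2 not at all between the stages in each genotype. Their sums overlapped between the stages, with 2477 to 2751 CPM in P25 KO and 2071 to 2556 CPM in E14 KO. In WT the sums were 2703 to 3032 CPM at P25 and 1948 to 3682 CPM at E14. The overlap in WT came from E14 WT replicate 2 alone, and the other E14 WT libraries had 1948 to 2281 CPM. Within that list, Mrgprd marks the nonpeptidergic class of nociceptors. It averaged 62.2 CPM in P25 KO and 58.1 CPM in P25 WT, against 0 CPM in E14 KO and 0.0142 CPM in E14 WT. Mrgprd does not stand for the list. Over the 10 markers, log2 fold changes of P25 over E14 ran from -1.95 to 13.42 in KO and from -1.98 to 11.62 in WT.

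Loss of Nogo-A was then compared with the wild type at each stage. At P25, edgeR called none of the 8 receptors (background 0.0463% of the genes tested), none had an unadjusted p under 0.05, and DESeq2 called 0. KO and WT overlapped for all 8, where 3.32% of all genes tested did not. The P25 values lay between a log2 fold change of KO over WT of -0.02 for P2rx6 and 0.32 for P2ry1 (95% interval -0.30 to 0.94, adjusted p = 1). For P2rx3 the difference was 0.04 (95% interval -0.27 to 0.34), so the data leave room for a fold between 0.832 and 1.27.

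At E14, edgeR and DESeq2 again called 0 of the 8 (background 0.0199% by edgeR), and KO and WT overlapped for all 8, where 1.63% of all genes tested did not. P2rx3 differed by -0.02 on the log2 scale (95% interval -0.32 to 0.29). P2rx6 was the one gene with an unadjusted p under 0.05 (0.0411). Its log2 fold change of KO over WT was -1.26 (95% interval -2.46 to -0.06, edgeR adjusted p = 0.942). That value rested on the 20 and 49 counts given above. Without E14 WT replicate 2 it was -0.59, and without E14 KO replicate 2 it was -1.85, not called in either case. The macrophage marker sums were 69.7 to 88.9 CPM in E14 KO and 85.7 to 145 CPM in E14 WT, so that their ranges met only at the edge. The 8 surface epithelium markers summed to 56.5 to 64.5 CPM in E14 KO and 65.7 to 94.5 CPM in E14 WT, without overlap, and 1 of the 5 tested was called lower in KO. The 5 did not move together, with a median log2 fold change of -0.03 and values from -2.40 to 1.50. At P25 their list also had 1 marker called lower in KO, but the sums overlapped, with 223 to 290 CPM in KO and 212 to 328 CPM in WT. The part of either list in these values was not tested. The remaining 6 receptors lay between -0.19 for P2ry1 and 0.12 for P2rx2. The depth at E14 limits P2rx5 most among these, with a 95% interval from -1.03 to 0.83.

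**Figure D4:**
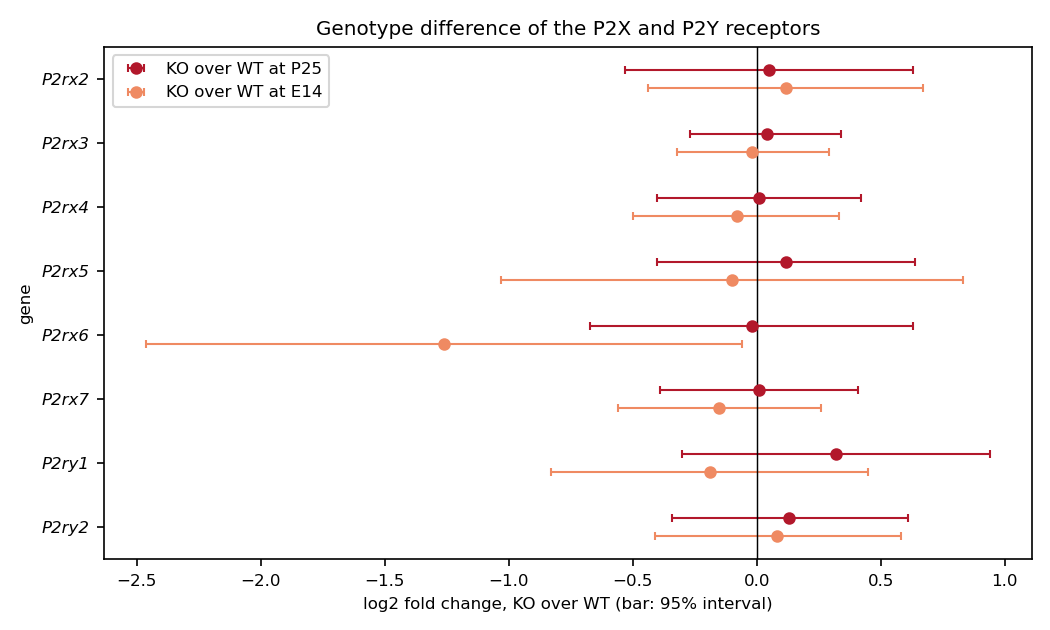
Log2 fold change of KO over WT (x axis) for each receptor gene (y axis), with its 95% interval, at P25 (upper point) and E14 (lower point). All intervals span 0 except that of P2rx6 at E14, which runs from -2.46 to -0.06 and is not called after adjustment.

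Whether the stage change differed between KO and WT was tested as an interaction. None of the 8 was called by edgeR or DESeq2 (background 0% by edgeR), and none had an unadjusted p under 0.05. The interaction was 1.24 for P2rx6 (95% interval -0.13 to 2.61, unadjusted p = 0.0727, adjusted p = 0.993), and 0.57 without E14 WT replicate 2 and 1.84 without E14 KO replicate 2. It was 0.51 for P2ry1 (95% interval -0.38 to 1.40, adjusted p = 0.993). Intervals of this width do not show that the genotypes changed alike. The 2 stage comparisons share no library with each other, but each shares its libraries with the genotype comparisons.

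Other genes of nucleotide signalling were read from 6 lists holding 67 genes, of which 53 passed the filter on low counts. P25 over E14, edgeR called 27 higher and 10 lower in KO and 28 higher and 10 lower in WT. Over all genes tested, 30.6% were higher and 29.2% lower in KO, and 29.7% higher and 29.8% lower in WT. Their median log2 fold change was 1.03 in KO and 0.95 in WT. The genotype comparisons called 0 of the 53 at either stage by edgeR or DESeq2, with 0 at P25 and 1 at E14 (Enpp1) under an unadjusted p of 0.05. The interaction also gave 0 calls by both tools, with 1 gene (Gjc3) under 0.05 before adjustment. At P25, 3 of the 53 did not overlap between KO and WT, namely Gjc3, Enpp2 and Dpp4, all higher in KO and none called, beside 3.32% of all genes tested.

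Among the 7 other P2 receptor genes, 4 were tested and 3 of these were called higher at P25 in both genotypes. The share called higher among all genes tested was 30.6% in KO and 29.7% in WT. P2ry14, a Gi-coupled receptor for UDP-glucose, averaged 2.48 CPM in P25 KO and 2.75 CPM in P25 WT, against 0.514 CPM in E14 KO and 0.331 CPM in E14 WT (edgeR adjusted p = 0.000462 in KO and 3.75e-05 in WT). P2ry12, the Gi-coupled ADP receptor of microglia and platelets, averaged 2.61 CPM in P25 KO and 2.86 CPM in P25 WT, against 0.773 CPM in E14 KO and 1.04 CPM in E14 WT (edgeR adjusted p = 0.00142 in KO and 0.00474 in WT). The third was P2ry13, a Gi-coupled ADP receptor. Per kilobase, the 3 averaged 0.427 to 1.22 CPM over the P25 groups, beside 1.44 in P25 KO and 1.39 in P25 WT for P2rx2, the lowest of the 8. P2ry6, a Gq-coupled receptor for UDP, was tested and not called (edgeR adjusted p = 0.278 in KO and 0.327 in WT), and it averaged 2.08 CPM per kilobase in P25 KO and 2.36 in P25 WT, above the mean of P2rx2, with overlap in KO and none in WT. P2rx1, P2ry4 and P2ry10 were under the filter.

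Of the 14 genes for ATP release, 9 were tested, and 4 were called higher and 2 lower at P25 in each genotype. The share called among all genes tested was 59.8% in KO and 59.6% in WT. The gap junction genes Gjb1 and Gjc3 led the rise. Gjb1, which encodes connexin 32, averaged 44.2 CPM in P25 KO and 44.3 CPM in P25 WT, against 0.224 CPM in E14 KO and 0.226 CPM in E14 WT. Its E14 values rested on 19 counts in all in KO and 16 in WT. Gjc3, encoding connexin 29, had 84.0, 88.9, 80.9 and 65.4 CPM in P25 KO and 60.9, 55.3, 63.1 and 48.8 CPM in P25 WT, against means of 2.70 CPM in E14 KO and 3.49 CPM in E14 WT. Panx1, whose channel releases ATP from neurons and glia, fell to 63.8 ± 4.35 CPM in P25 KO, against 145 ± 15.0 CPM in E14 KO, and to 75.0 ± 10.9 CPM in P25 WT, against 155 ± 35.5 CPM in E14 WT (SD, n = 4 each). Gja1, encoding connexin 43, also fell, with a log2 fold change of -0.87 (edgeR adjusted p = 0.002) in KO and -0.69 (adjusted p = 0.0111) in WT. Its stages overlapped in WT. Panx2 went the opposite way to Panx1 and rose by 2.79 in KO and 2.31 in WT on the log2 scale.

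The list of enzymes that break down extracellular nucleotides held 10 genes, of which 9 were tested. All 9 were called, 6 higher and 3 lower at P25 in both genotypes. Over all genes tested, 59.8% were called in KO and 59.6% in WT. Entpd3, an ectonucleotidase of sensory neurons, had 204 to 256 CPM in P25 KO and 234 to 246 CPM in P25 WT, against 0.408 to 2.86 CPM in E14 KO and 0.920 to 1.83 CPM in E14 WT. Its log2 fold change of P25 over E14 was 7.26 (SE 0.36, edgeR adjusted p = 1.93e-12) in KO and 7.47 (SE 0.36, adjusted p = 1.43e-12) in WT. Enpp1, a pyrophosphatase, rose by 4.63 in KO and 3.65 in WT on the log2 scale. Entpd1, the ectonucleotidase of vessels and immune cells also known as CD39, fell by 1.54 in KO and by 1.37 in WT, and Enpp3 fell by 2.51 in KO and by 2.83 in WT.

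For adenosine, the end product of that breakdown, 3 of the 4 receptor genes were tested. Adora1, the Gi-coupled A1 receptor, averaged 211 ± 24.6 CPM in P25 KO and 214 ± 46.5 CPM in P25 WT, against 16.9 ± 3.51 CPM in E14 KO and 16.2 ± 4.09 CPM in E14 WT (SD, n = 4 each). Adora2a also rose in both genotypes, by 1.42 in KO and 0.95 in WT on the log2 scale, while Adora2b was called in WT (edgeR adjusted p = 0.0447) and not in KO (adjusted p = 0.142), a difference between genotypes that the interaction did not call (adjusted p = 0.993). Of the 11 genes that handle adenosine, 8 were tested, with 3 called higher and 2 lower in each genotype. Among all genes tested, 59.8% were called in KO and 59.6% in WT. Adk, the kinase that returns adenosine to AMP, rose by 2.89 in KO and 3.26 in WT, and the transporter gene Slc29a1 by 1.03 and 1.15. Slc29a4, another transporter gene, fell by 1.38 in KO and by 1.51 in WT, and Pnp, a purine-salvage enzyme, by 1.37 and by 0.85.

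Signalling partners of P2 receptors were the last list, with 20 of 21 tested. At P25, 9 were called higher and 3 lower in each genotype. Calls took in a like share of all genes tested, 59.8% in KO and 59.6% in WT. Trpa1, a channel for irritants in nociceptors, measured 31.3 to 41.1 CPM in P25 KO and 23.8 to 41.3 CPM in P25 WT, against 0.0952 to 0.653 CPM in E14 KO and 0 to 0.438 CPM in E14 WT. The E14 values of Trpa1 rested on 24 counts in all in KO and 18 in WT. Kcnq3, a subunit of the M-current channel that Gq-coupled receptors close, rose by 2.91 in KO and 2.14 in WT on the log2 scale. Gnai3, a Gi subunit, fell by 0.80 in KO (edgeR adjusted p = 0.0172) and by 1.20 in WT (adjusted p = 0.000936). In WT its stages overlapped, with 18.5 CPM in E14 WT replicate 2 and 18.2 to 22.6 CPM in P25 WT.

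**Figure D5:**
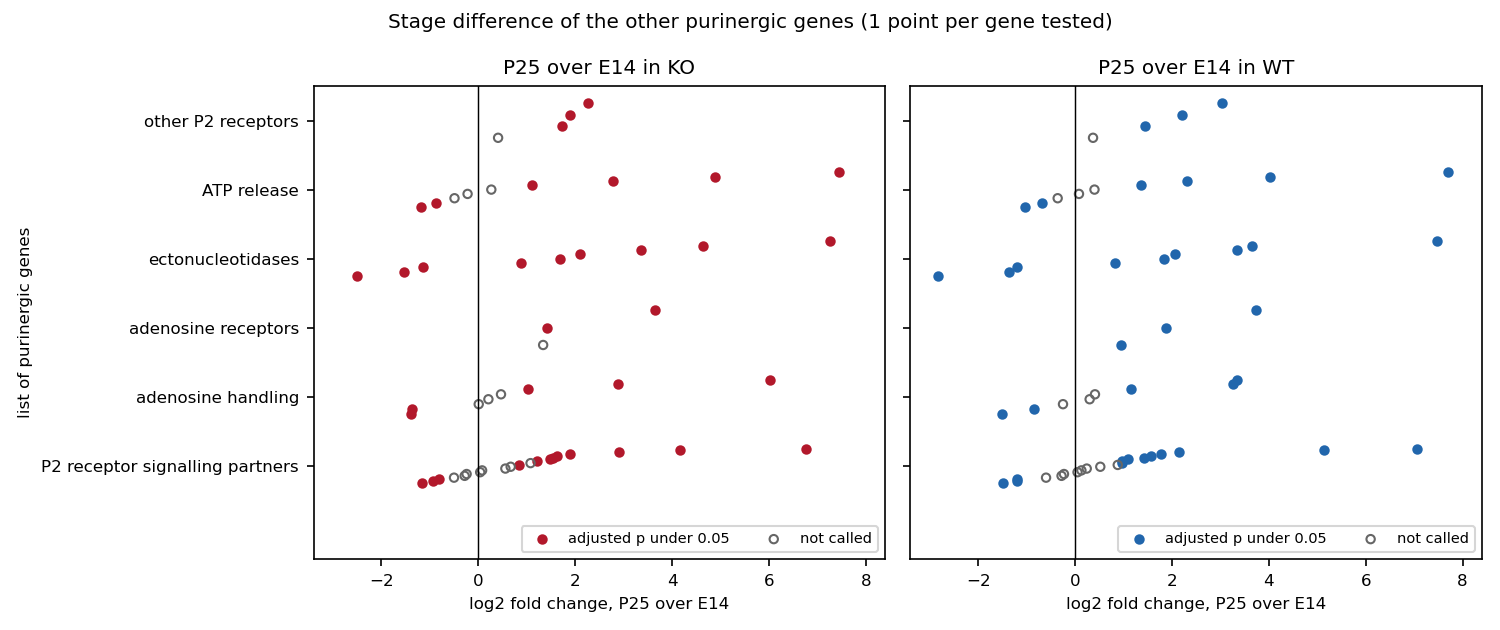
Log2 fold change of P25 over E14 (x axis) for the 53 tested genes of the other purinergic lists (y axis, 1 row per list), in KO (left) and WT (right). Filled points were called at an adjusted p under 0.05 and open points were not. Most filled points lie right of 0, up to 7.45 in KO and 7.70 in WT for Gjb1, which had 19 counts in E14 KO and 16 in E14 WT.

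The genes with the pattern most like each receptor were found by the root mean square difference of log2 CPM, centred on each gene's own mean, over the 16 libraries and among 13137 genes. For P2rx3 they were Chfr (0.15), Tdg (0.17) and Rhou (0.17), and for P2rx2 they were Fbl (0.20), Maged2 (0.22) and Fbll1 (0.23). P2rx5 lay closest to Apod (0.42), Calca (0.47) and Vsnl1 (0.47), and P2rx6 to Angptl7 (0.65), Scn4b (0.68) and Colq (0.72). The nearest patterns to P2rx4 were Tusc2 (0.12), Serpinf1 (0.15) and Smim1 (0.15), and to P2rx7 they were Vat1l (0.17), Ehd4 (0.21) and Plekhb2 (0.23). P2ry1 was nearest to Gpm6b (0.20), Galnt13 (0.22) and Plxnc1 (0.22), and P2ry2 to Col15a1 (0.21), Plbd2 (0.21) and Wbp2 (0.23). A stage difference of like size is enough to give a small value on this measure.

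Promoter sequence was available from RefSeq (GRCm38.p6) for P2rx4, P2rx6, P2rx7, P2ry1 and P2ry2, in 7 windows of 300 bases, each from 250 bases before a transcript start to 50 after it. The windows differed widely in CG dinucleotides, which mark CpG islands when dense. P2ry2 had 30 and 28, P2ry1 had 25 and P2rx4 had 18, whereas P2rx7 had 8 and 4 and P2rx6 had 3. Over all 32851 windows of this length the median was 7, with quartiles of 3 and 20. The stretches before the start are shown for the receptor gene with the largest stage difference (P2rx6, chr16:17561635-17561884), for P2rx7 (chr5:122643677-122643910) and, as the CpG-rich contrast, for P2ry1 (chr3:61002535-61002784), all on the plus strand and read 5′ to 3′, with CG dinucleotides in capitals.
P2rx6: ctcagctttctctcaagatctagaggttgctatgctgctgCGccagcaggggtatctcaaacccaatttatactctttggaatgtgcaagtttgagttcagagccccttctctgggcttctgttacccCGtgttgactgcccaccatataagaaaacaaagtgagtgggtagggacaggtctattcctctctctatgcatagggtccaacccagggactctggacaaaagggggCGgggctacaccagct
P2rx7: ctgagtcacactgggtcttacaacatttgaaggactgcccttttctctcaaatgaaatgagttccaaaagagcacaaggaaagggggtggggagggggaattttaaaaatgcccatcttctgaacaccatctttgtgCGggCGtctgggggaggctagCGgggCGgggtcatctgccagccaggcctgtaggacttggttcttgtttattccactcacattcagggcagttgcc
P2ry1: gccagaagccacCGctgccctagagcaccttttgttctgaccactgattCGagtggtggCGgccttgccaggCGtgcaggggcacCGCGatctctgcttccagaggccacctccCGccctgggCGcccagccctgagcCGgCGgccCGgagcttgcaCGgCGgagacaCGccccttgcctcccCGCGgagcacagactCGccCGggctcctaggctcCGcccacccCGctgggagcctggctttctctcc

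The printed stretches hold 3 CG dinucleotides in P2rx6, 4 in P2rx7 and 20 in P2ry1. Each 300-base window was searched on both strands for a GC box (GGGCGG, found in 35.7% of all windows), a TATA box (TATAAA, 13.6%), an E-box (CAGCTG, 16.3%), a RUNX core (TGTGGT, 16.8%) and a CCAAT box (CCAAT, 37.4%). The P2rx6 window held 1 match each to the GC box, TATA box, E-box and CCAAT box, with the CCAAT and reversed TATA matches sharing 1 base. The GC box was matched 1 time in P2rx4, 2 times in P2ry1 and 4 times in each P2ry2 window. It was matched 2 times in the P2rx7 window printed in part above, with 1 match past the printed bases. The E-box match of P2rx6 is not complete within the printed bases. None of the 7 windows matched the RUNX core, and the other 6 had no TATA box, E-box or CCAAT box. These matches describe letters in a window and were not tested as binding sites.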

How the data were processed

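Per the labels' protocols, mRNA of 16 mouse trigeminal ganglia was made into stranded libraries. The authors deposited estimated counts per gene, which are whole numbers in the file. Their processing notes, as submitters, list kallisto 0.46, fastp 0.20.0, GRCm39 and DESeq2 1.32.0 without a role or order. Annotation and strand setting of the counting were not given in the sources used here, so reads of overlapping genes on opposite strands may have been shared. Identifiers were matched to symbols and to GRCm38 coordinates by Ensembl ID, and printed coordinates are GRCm38, not the build of the notes.

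Groups came from sample titles. edgeR 4.0.16 in R 4.3.3 was run on all 16 libraries with a mean per group (TMM scaling, filterByExpr, quasi-likelihood test), giving 15109 genes tested, Benjamini-Hochberg adjustment over all of them and a threshold of 0.05. CPM uses the TMM-scaled library sizes. Intervals are 95% intervals of the fit, and the procedure was tested on simulated data. DESeq2 1.42.0 and other settings were tried, up to 25 per result. Figures were drawn with matplotlib 3.10.9.

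The receptors and all lists were chosen with earlier results of these data known. All 8 receptors are named. From the other purinergic lists, genes named are the 2 called genes with the largest fold in each direction for P25 over E14 in WT with at least 1 CPM on average, and any called in a genotype test. Of these, 1 gene is not reported here. P2ry6, P2ry13, Panx2, Enpp2, Dpp4, Adora2b, Mrgprd, Slc17a9 and P2rx1 were named after their values were seen. Ganglia of different groups cannot come from 1 animal, so no pairing by replicate number was used. P-values measure the spread between ganglia, some of which may share an animal.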

Additional observations from a re-analysis of the deposited data

Results flagged for a closer look

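In 28 genes (the 8 receptors and 20 genes that the naming rule takes from the other purinergic lists), each group of 4 libraries was checked for a library far from the other 3. Of 112 such groups 6 stood out, where about 1 in 20, or 5.6, would by chance. None of the 32 groups of receptor values did.

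P2ry12 was highest in P25 KO replicate 2, at 2.97 CPM, with the other 3 libraries at 2.47 to 2.51 CPM. Panx1 was lowest in P25 KO replicate 1, at 57.3 CPM, with the others at 65.7 to 66.4 CPM. In E14 WT replicate 2, Panx1 reached 208 CPM, with the others at 135 to 139 CPM, and Gjb1 reached 0.610 CPM, with the others at 0.0438 to 0.138 CPM. Pnp was highest in E14 KO replicate 4, at 24.8 CPM, with the others at 16.9 to 17.8 CPM. Kcnq3 was lowest in P25 WT replicate 4, at 17.8 CPM, with the others at 29.3 to 31.4 CPM.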

How the results depend on the processing

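Under 25 alternatives (DESeq2, 2 other scalings, no filter and a stricter filter on low counts, only the groups compared, a replicate block, same-numbered ganglia summed, offsets for GC content and length, and each library left out in turn), all 8 receptors were called for P25 over E14 in KO and in WT, each time in the direction reported. KO over WT and the interaction gave 0 calls among the 8 at either stage in every alternative run. The fit on only the groups compared gave no interaction value. The replicate block (the replicate number as an additive term) called 8 receptors in KO and 8 in WT between the stages and 0 between genotypes. Deviations of same-numbered libraries correlated between -0.392 and 0.216, with both signs, so the numbers do not pair the ganglia. Of the other purinergic genes, 37 were called in KO and in WT with the block and 42 with the GC and length offsets. Without a call, the sign of KO over WT at E14 turned for P2rx3 in 12 of 25 alternatives, a difference close to 0. Depth limits P2rx5 and P2rx6 at E14, where 20 to 49 counts per group stand behind each value, and neither passed the filter when the E14 groups were fitted alone.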

Other observations

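A pair of low genes under the filter had uneven counts between KO and WT at E14. Slc17a9, the vesicular nucleotide transporter that loads ATP into vesicles, had no count in the 4 E14 KO libraries and 0, 5, 6 and 6 counts in the E14 WT libraries. At P25 it had 26 counts over the 4 KO libraries and 19 over the 4 WT libraries. P2rx1, an ATP-gated channel of platelets and smooth muscle, had 0, 2, 0 and 7 counts in the E14 KO libraries and 18, 4, 9 and 18 in the E14 WT libraries, with overlap. It had 8 counts over the 4 P25 KO libraries and 2 over the 4 P25 WT libraries. In the edgeR fit with no filter on low counts, neither passed for KO over WT at E14 (adjusted p = 0.871 for Slc17a9 and 0.927 for P2rx1). Both were picked after their values were seen.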
